A study of Mus musculus with 2 samples.

Results

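Natural killer (NK) cells made up 175 of the 21268 gingival cells kept from mice with ligature-induced periodontitis (LIP). They were chosen by their transcripts. A cell had to hold at least 3 UMIs (unique molecular identifiers, each standing for 1 captured transcript) over Ncr1, Klrb1c, Klre1 and Gzma. It could hold at most 1 UMI over Cd3e, Cd3d and Cd3g, at most 1 over Cd79a and Ms4a1, less than 0.4% of its UMIs from the C1q genes and less than 3% from S100a8 and S100a9. The library from 10% Tet2-/- bone marrow transplantation (10% Tet2-/- BMT) held 48 such cells and that from 10% Tet2+/+ BMT held 127. Levels of the rule's own genes, and of every gene set against other cells, therefore describe the selection and carry no test.

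Recipient mice had received marrow of which 10% was Tet2-/- or Tet2+/+, and 12 weeks later periodontitis was induced with a ligature for 5 days. Tet2 is a dioxygenase that acts on 5-methylcytosine in DNA. The sources used here do not give the rest of the graft, the strain, sex and number of the animals or the deleted part of Tet2, and no label marks which cells came from the Tet2-/- marrow. The design text gives the sort as CD45.2+CD11b+ for 10% Tet2-/- BMT and CD45+CD11b+ for 10% Tet2+/+ BMT, whereas both sample titles name CD45.2+CD11b+, so a difference in gate cannot be told apart from the group. There was 1 library per group, which leaves no spread between animals and no test between groups, and every 95% interval given here covers counting error only.

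NK cells are innate lymphocytes that kill infected or transformed cells without a rearranged antigen receptor. They release perforin and granzymes from cytotoxic granules, and they secrete interferon gamma and chemokines that act on macrophages and dendritic cells. Their activity is set by activating receptors, such as NKp46 (Ncr1) and NKG2D (Klrk1), against inhibitory receptors for MHC class I, which in the mouse include many members of the Ly49 (Klra) family. Conventional NK cells depend on the T-box factor Eomes, while tissue innate lymphoid cells of type 1 mostly lack Eomes and carry Itga1 or Cxcr6. Types 2 and 3 make type 2 cytokines or interleukins 17 and 22. In mouse NK cells CD11b, the protein used for the sort, is gained on maturation while CD27 is lost.

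The cells carried the receptors and the granule content of NK cells. Levels are in CPM, a gene's UMIs summed over the cells and scaled to their summed total. Ncr1 stood at 413 CPM in 10% Tet2-/- BMT and 539 CPM in 10% Tet2+/+ BMT. The T cells and B cells set beside the NK cells were allowed at most 1 UMI over the 4 genes of the rule, so the low levels of those genes there were set by the selection. This cap also left out T cells with more UMIs of those genes. Its part in the T cell levels of other genes, such as Eomes, Prf1 and the chemokine genes, was not tested. Gzma, the granzyme A gene, stood at 5896 CPM in 10% Tet2-/- BMT and 8768 CPM in 10% Tet2+/+ BMT, and gave 82.5% of the UMIs counted by the rule in both. A Gzma UMI was found in 89.6% of the 48 cells of 10% Tet2-/- BMT and in 92.1% of the 127 cells of 10% Tet2+/+ BMT. In neutrophils, which should lack it and were under no such cap, the share was 0.572% in 10% Tet2-/- BMT, with a median of 4821 UMIs per cell, and 2.65% in 10% Tet2+/+ BMT, with a median of 4717. None of the 175 cells met the rule on Gzma alone. Eomes, which the rule did not use, was found in 79.2% of the cells in 10% Tet2-/- BMT and 67.7% in 10% Tet2+/+ BMT, against 6.72% of T cells in 10% Tet2-/- BMT and 8.33% in 10% Tet2+/+ BMT.

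After Gzma, the genes with the highest excess over all other kept cells in both libraries were Ccl5, Gzmb, Prf1 (perforin), Nkg7 (a granule membrane protein) and Xcl1 (a chemokine for Xcr1+ dendritic cells). As a log2 ratio with 20 CPM added to each side, the excess of Gzma was 7.24 in 10% Tet2-/- BMT and 7.54 in 10% Tet2+/+ BMT. For Ccl5 it was 5.53 in 10% Tet2-/- BMT and 5.78 in 10% Tet2+/+ BMT, and for Prf1 5.05 in 10% Tet2-/- BMT and 5.38 in 10% Tet2+/+ BMT. The leading 30 also held the Ly49 genes Klra4, Klra7, Klra8 and Klra9, the CD94 gene Klrd1, Klrk1, the shared interleukin 2 and 15 receptor chain Il2rb, the granzyme B inhibitor Serpinb9 and Eomes. Against T cells, the strongest excess outside the genes of the rule was in Klra4, Klra8 and Prf1. The strongest deficits against T cells were in Cd3g, Cd3d, Cd3e, Cd8b1 and the homing receptor Ccr7, the first 3 of which the rule limited. The 10 strongest also held Tnfrsf4, Retnla, Bcl11b, Il7r and Ccl17. These T cells carried dendritic cell markers, at a summed 18770 CPM in 10% Tet2-/- BMT and 11114 CPM in 10% Tet2+/+ BMT. All other kept cells held 9809 CPM in 10% Tet2-/- BMT and 9311 CPM in 10% Tet2+/+ BMT. The T cells are thus a mixed reference, and doublets among them were not tested.

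**Figure D1:**
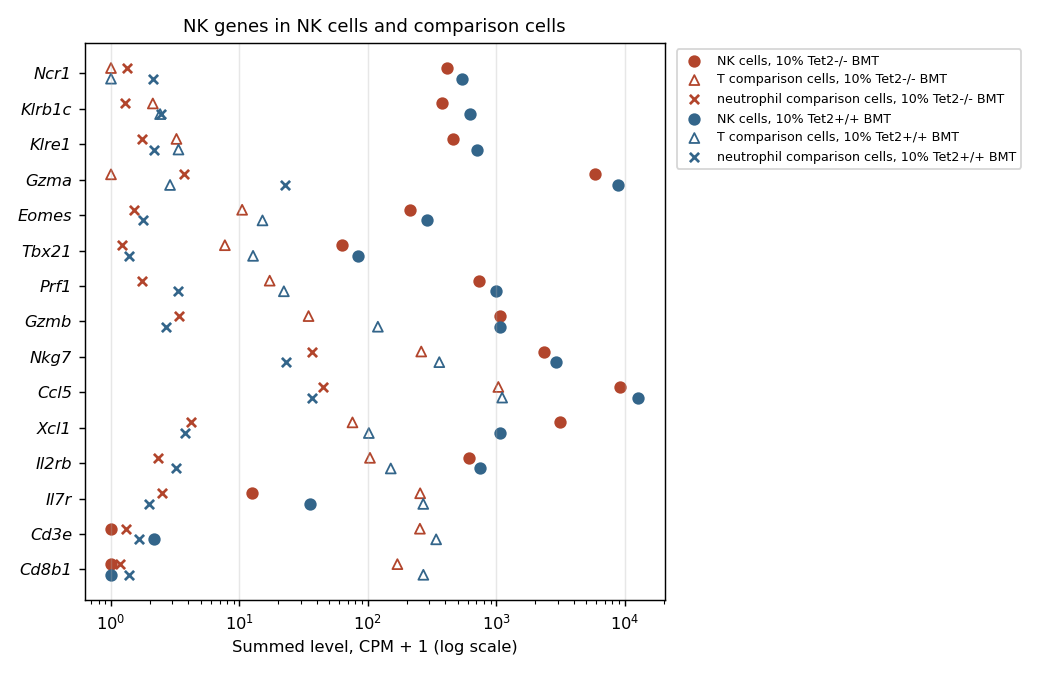
Summed level (CPM + 1, log scale) of 15 genes in the NK cells (filled circles), T cells (open triangles) and neutrophils (crosses) of each library, with 10% Tet2-/- BMT in red above 10% Tet2+/+ BMT in blue. Gzma reaches 5896 CPM in 10% Tet2-/- BMT and 8768 CPM in 10% Tet2+/+ BMT, while Cd8b1 lies at 0 in the NK cells of both libraries.

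Promoters of 3 leading genes are shown because these genes define the cells and because Runx3, which encodes a factor that binds TGTGGT, was itself at 254 CPM in 10% Tet2-/- BMT and 260 CPM in 10% Tet2+/+ BMT. RefSeq gave the 300 bases around a start for 23 of the 30 leading genes, and the 250 bases before the start are printed from build GRCm38.p6 for Gzma, Ncr1 and Klrb1c. The letters TGTGGT, or ACCACA where they lie on the other strand, are in capitals. The motifs were chosen after the data had been seen.
Gzma (granzyme A), chr13:113100982-113101231, minus strand: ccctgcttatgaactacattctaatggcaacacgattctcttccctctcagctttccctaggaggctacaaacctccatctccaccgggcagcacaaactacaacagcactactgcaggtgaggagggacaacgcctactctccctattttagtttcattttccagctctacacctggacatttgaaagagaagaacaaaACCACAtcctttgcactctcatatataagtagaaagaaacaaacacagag
Ncr1 (NKp46), chr7:4337474-4337723, plus strand: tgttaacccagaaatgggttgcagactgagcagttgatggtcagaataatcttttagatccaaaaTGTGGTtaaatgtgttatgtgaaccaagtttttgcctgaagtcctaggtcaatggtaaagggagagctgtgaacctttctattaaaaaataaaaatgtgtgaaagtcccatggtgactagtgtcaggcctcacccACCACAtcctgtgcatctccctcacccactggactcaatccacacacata
Klrb1c (NK1.1), chr6:128788642-128788891, minus strand: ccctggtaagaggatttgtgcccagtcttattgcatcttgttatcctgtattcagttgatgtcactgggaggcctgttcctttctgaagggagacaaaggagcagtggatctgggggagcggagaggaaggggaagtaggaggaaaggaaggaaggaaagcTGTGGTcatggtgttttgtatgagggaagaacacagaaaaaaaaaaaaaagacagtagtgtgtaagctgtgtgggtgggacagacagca
On either strand, TGTGGT was present in the 250 bases before the start in 12 of the 23 genes (52.2%), against 15.9% of 27025 genes. The 12 included Gzmb, Prf1, Nkg7, Xcl1 and Klrk1, and also Gzma, Klrb1c, Klre1 and Ncr1, which the rule used. The longer TGTGGTT, which contains TGTGGT, was present in 7 of 23 (30.4%) against 5.08%. For Gzmb and Prf1, bases just after the RefSeq start were not found in the GENCODE transcripts of the gene. The printed Klrb1c bases precede its RefSeq start but lie inside the gene as GENCODE M21 places it, at chr6:128778485-128789215. AGGTGT, the core letters of the T-box motif, was present in 3 of 23 (13%) against 13.6%, and AGGTGTGA, which contains it, in 1 of 23 (4.35%) against 1.3%. The ETS letters ACAGGAA were present in 17.4% against 8.13%, CAGGAAGT in 8.7% against 3.13%, and the STAT letters TTCNNNGAA in 21.7% against 8.13%. A match is a description of letters, not a binding site, and the Klr genes lie in 1 cluster of related genes on chromosome 6. The 23 genes were ranked in these same cells, and the 27025 were not limited to genes expressed in lymphocytes. Whether Runx3 acts on any of these genes was not tested.

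The label names innate lymphoid cells beside NK cells, and the genes of types 1, 2 and 3 were looked at in turn. Il23r, Il22 and Il17a, which mark type 3 cells, had no UMI in any of the 175 cells, nor had the type 2 genes Il13, Il5, Areg and Il17rb. A count of 0 allows a level of up to 6.93 CPM in 10% Tet2-/- BMT and 3.45 CPM in 10% Tet2+/+ BMT, and a share of cells with a UMI of up to 6.25% in 10% Tet2-/- BMT and 2.36% in 10% Tet2+/+ BMT. That share does not limit the cells that express the gene, since a cell of this depth can express a gene and yield no UMI. Of 11 type 2 genes 7 were at 0 in both libraries. Gata3, which NK cells also express, was found in 35.4% of cells in 10% Tet2-/- BMT and 26% in 10% Tet2+/+ BMT. Itga1, an integrin of type 1 cells, was found in 14.6% of cells in 10% Tet2-/- BMT and 7.87% in 10% Tet2+/+ BMT. Cxcr6 was found in 4.17% of cells in 10% Tet2-/- BMT and 5.51% in 10% Tet2+/+ BMT, and Zfp683 had no UMI. The cells without an Eomes UMI and the cells rich in Gzmc, described further on, carried some type 1 genes, and the name NK cells covers every cell chosen by the rule.

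NK cells were a smaller share of the 10% Tet2-/- BMT library. They were 0.50% of its 9596 kept cells (Clopper-Pearson 95% interval 0.369 to 0.663) and 1.09% of the 11672 kept cells of 10% Tet2+/+ BMT (0.908 to 1.29), a ratio of 0.460 (0.323 to 0.646). T cells were 1.24% in 10% Tet2-/- BMT and 1.64% in 10% Tet2+/+ BMT, a ratio of 0.754, and B cells 3.27% in 10% Tet2-/- BMT and 4.14% in 10% Tet2+/+ BMT, a ratio of 0.791. Among NK, T and B cells together, NK cells were 9.98% in 10% Tet2-/- BMT (7.45 to 13.01) and 15.8% in 10% Tet2+/+ BMT (13.4 to 18.5), a ratio of 0.630 (0.442 to 0.885). Both sorts chose on CD11b, which can set such shares, and the part of the gates was not tested. A further 60 cells in 10% Tet2-/- BMT and 78 in 10% Tet2+/+ BMT held 3 or more rule UMIs but lay past another limit of the rule. The part of those limits in the share ratio was not tested. The median NK cell held 6921 UMIs and 2141 genes in 10% Tet2-/- BMT and 5734 UMIs and 2001 genes in 10% Tet2+/+ BMT.

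Few cells lay near the lower limit of the rule. The median cell held 55.5 rule UMIs in 10% Tet2-/- BMT and 64 in 10% Tet2+/+ BMT, and exactly 3 were held by 0 cells in 10% Tet2-/- BMT and 2 in 10% Tet2+/+ BMT. Just outside, 1 cell in 10% Tet2-/- BMT and 8 in 10% Tet2+/+ BMT held 2 rule UMIs within all other limits. The libraries shared 31 kept barcodes, none of them in an NK cell. Some NK cells also carried myeloid transcripts. In 10% Tet2-/- BMT 3 cells, and in 10% Tet2+/+ BMT 7, held 1% or more of their UMIs from Lyz2, Cd74 and Apoe, with a median depth of 20820 UMIs in 10% Tet2-/- BMT and 14276 in 10% Tet2+/+ BMT. They held 48.3% of the NK cells' Lyz2 UMIs in 10% Tet2-/- BMT and 87.6% of the Cd74 UMIs in 10% Tet2+/+ BMT. Whether they are doublets was not tested.

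The cells carried mixed sets of maturation markers. Itgam, the CD11b gene, was found in 52.1% of cells in 10% Tet2-/- BMT and 58.3% in 10% Tet2+/+ BMT, and Itga2 (the DX5 integrin) in 52.1% in 10% Tet2-/- BMT and 46.5% in 10% Tet2+/+ BMT. Cd27 was found in 26 of 48 cells (54.2%, 39.2 to 68.6) in 10% Tet2-/- BMT and in 39 of 127 (30.7%, 22.8 to 39.5) in 10% Tet2+/+ BMT. With every cell thinned to 1000 UMIs, which left out 1 cell of 10% Tet2+/+ BMT, the share with Cd27 was 16.7% in 10% Tet2-/- BMT and 8.73% in 10% Tet2+/+ BMT. Both measures put Cd27 higher in 10% Tet2-/- BMT, and the intervals of the unthinned shares overlap narrowly. In neutrophils a Cd27 UMI was found in 1.17% of cells in 10% Tet2-/- BMT and 1.32% in 10% Tet2+/+ BMT.

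**Figure D2:**
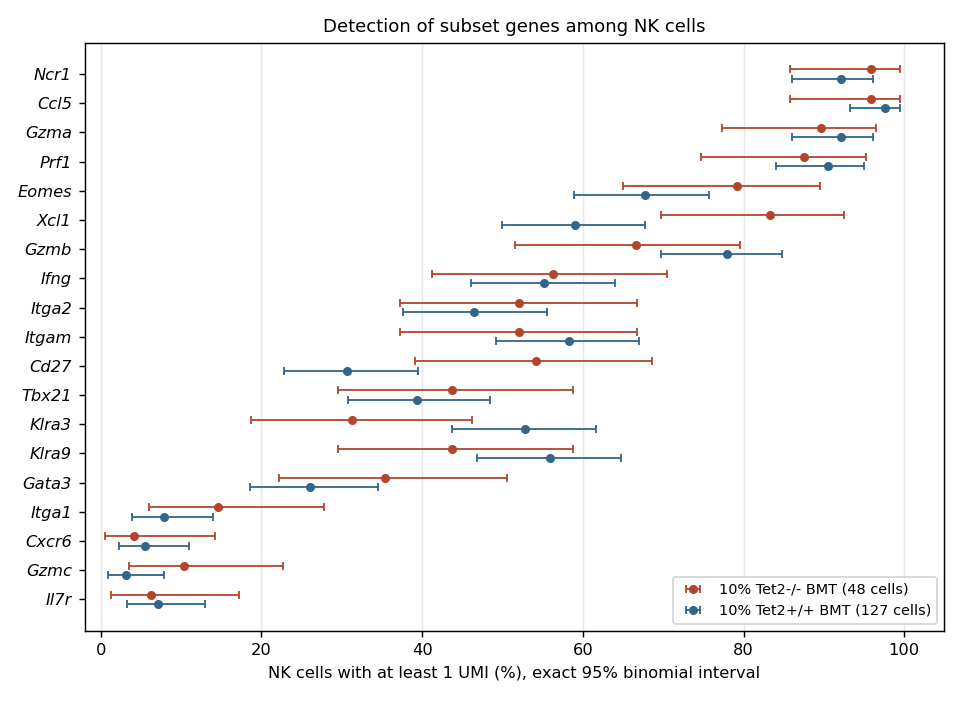
Share of NK cells with at least 1 UMI of 19 genes (points, with exact 95% binomial intervals as bars), with 10% Tet2-/- BMT (48 cells, red) above 10% Tet2+/+ BMT (127 cells, blue). Xcl1 was found in 83.3% of cells in 10% Tet2-/- BMT and 59.1% in 10% Tet2+/+ BMT. The bars cover counting error within 1 library per group and do not test a difference.

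Cells with and without an Eomes UMI were compared within each library for genes of NK cells and of type 1 cells, and not all of them split the same way. In 10% Tet2-/- BMT the activating Ly49 gene Klra8 stood at 520 CPM in the 38 cells with an Eomes UMI and 36 CPM in the 10 cells without. In 10% Tet2+/+ BMT Klra8 stood at 755 CPM in the 86 cells with an Eomes UMI and 315 CPM in the 41 cells without. Cxcr6, a receptor of tissue-resident cells, ran the other way. In 10% Tet2-/- BMT it had 0 UMIs in the cells with Eomes and 12 in those without, and in 10% Tet2+/+ BMT 1 UMI in the cells with Eomes and 22 in those without. Tmem176b, another type 1 gene, stood in 10% Tet2-/- BMT at 126 CPM with and 240 CPM without Eomes, and in 10% Tet2+/+ BMT at 34.4 CPM with and 237 CPM without. The integrin gene Itga1 was not split in the same way in both libraries. It stood at 54.3 CPM with and 48.0 CPM without Eomes in 10% Tet2-/- BMT, where 5 of the 7 cells with an Itga1 UMI held Eomes. In 10% Tet2+/+ BMT it stood at 9.06 CPM with and 50.5 CPM without Eomes. In 10% Tet2-/- BMT the 10 cells without Eomes included the 3 cells rich in Gzmc described further on. Those 3 cells held 20089, 23883 and 7045 of the group's 83404 UMIs. They held 5, 8 and 6 of its 20 Tmem176b UMIs, 3, 0 and 1 of its 4 Itga1 UMIs, and no Klra8. A single cell held 10 of its 12 Cxcr6 UMIs. In that library the split therefore rests on few cells. Klra9, another Ly49 gene, did not follow Klra8, at 229 CPM with and 264 CPM without Eomes in 10% Tet2-/- BMT and 402 CPM with and 439 CPM without in 10% Tet2+/+ BMT. The median depth was 7268.5 UMIs with and 5350 UMIs without Eomes in 10% Tet2-/- BMT, and 5736.5 UMIs with and 4994 UMIs without in 10% Tet2+/+ BMT. The part of depth in this split was not tested.

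Few genes passed the size rule between the libraries. A gene was compared when it reached 100 CPM in at least 1 library and 50 UMIs in all, and was called at a 2-fold ratio with 20 CPM added to each side. Of 1583 genes, 26 (1.64%) were higher and 9 (0.569%) lower in 10% Tet2-/- BMT, 2.21% in all, and the median log2 ratio was 0.04. No gene list below held more than 23 genes that met the minimum, so a list without a call lies near that 2.21%. In 21 of the 26 higher genes 1 cell gave 25% or more of the UMIs in 10% Tet2-/- BMT, as it did in 9.22% of all genes compared. With the cell richest in each gene left out of both libraries, 14 of the 26 and 7 of the 9 stayed past 2-fold.

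The killing machinery held 1 call. Of 12 granule and death ligand genes that met the minimum, 1 (Gzmc) was called higher and none lower, beside 2.21% called over all genes compared. In this list 4 genes lay above and 8 below 0, and the median log2 ratio was -0.13. Gzma, which the rule used, had a median over cells of 4579 CPM in 10% Tet2-/- BMT and 9401 CPM in 10% Tet2+/+ BMT. Its levels overlapped, running from 0 to 33630 CPM per cell in 10% Tet2-/- BMT and from 0 to 71151 CPM per cell in 10% Tet2+/+ BMT. Prf1 stood at 732 CPM in 10% Tet2-/- BMT (653 to 817) and 996 CPM in 10% Tet2+/+ BMT (931 to 1065), a ratio of 10% Tet2-/- BMT over 10% Tet2+/+ BMT of 0.734 (0.644 to 0.836). Gzmb, whose product triggers caspases in the target, stood at 1062 CPM in 10% Tet2-/- BMT, where 1 cell gave 28.3% of it, and 1071 CPM in 10% Tet2+/+ BMT, a ratio of 0.991 (0.885 to 1.11). Nkg7 had a ratio of 0.806 (0.749 to 0.867), Fasl, the death ligand for Fas, 0.756 (0.578 to 0.980), and the granule protease gene Ctsw 0.985 (0.834 to 1.16). Gzma, Gzmb, Gzmc and Prf1 together gave 0.837% of all NK cell UMIs in 10% Tet2-/- BMT and 1.08% in 10% Tet2+/+ BMT.

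Chemokine genes gave a larger share of the transcripts than these. Ccl3, Ccl4, Ccl5 and Xcl1 together gave 1.71% of UMIs in 10% Tet2-/- BMT and 1.85% in 10% Tet2+/+ BMT, against 0.198% in T cells of 10% Tet2-/- BMT and 0.171% in T cells of 10% Tet2+/+ BMT. Ccl5, a chemokine that draws T cells and monocytes, stood at 9142 CPM in 10% Tet2-/- BMT and 12700 CPM in 10% Tet2+/+ BMT, a ratio of 0.720 (0.694 to 0.747). Ccl4 stood at 3528 CPM in 10% Tet2-/- BMT and 3670 CPM in 10% Tet2+/+ BMT (ratio 0.961, 0.904 to 1.02), and Ccl3 at 1330 CPM in 10% Tet2-/- BMT and 1037 CPM in 10% Tet2+/+ BMT (ratio 1.28, 1.15 to 1.43). Both encode chemokines that draw monocytes and lymphocytes. Ifng, the macrophage-activating cytokine, stood at 365 CPM in 10% Tet2-/- BMT (310 to 426) and 300 CPM in 10% Tet2+/+ BMT (265 to 339), and was found in 56.2% of cells in 10% Tet2-/- BMT and 55.1% in 10% Tet2+/+ BMT. Its ratio was 1.21 (0.990 to 1.49). Of 7 cytokine and chemokine genes that met the minimum, 1 (Xcl1) was called, beside 2.21% called over all genes compared. The median log2 ratio was 0.26, and a single call in so short a list is not read as a result about the list.

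Xcl1 was higher in 10% Tet2-/- BMT, at 3103 CPM against 1075 CPM in 10% Tet2+/+ BMT (ratio 2.89, 2.65 to 3.14). A single cell gave 54.8% of those UMIs in 10% Tet2-/- BMT. The log2 ratio of 1.51 became 0.64 with the richest cell of each library left out, and 0.13 without the 3 cells rich in Gzmc described next. An Xcl1 UMI was found in 40 of 48 cells (83.3%, 69.8 to 92.5) in 10% Tet2-/- BMT and 75 of 127 (59.1%, 49.98 to 67.7) in 10% Tet2+/+ BMT. After thinning, the share was 58.3% in 10% Tet2-/- BMT and 37.3% in 10% Tet2+/+ BMT. The median cell held 771 CPM in 10% Tet2-/- BMT and 362 CPM in 10% Tet2+/+ BMT. In T cells the share with Xcl1 was 20.2% in 10% Tet2-/- BMT, at a median depth of 12803 UMIs, and 15.1% in 10% Tet2+/+ BMT, at a median depth of 8259.5 UMIs. In neutrophils it was 0.286% in 10% Tet2-/- BMT and 0.599% in 10% Tet2+/+ BMT.

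**Figure D3:**
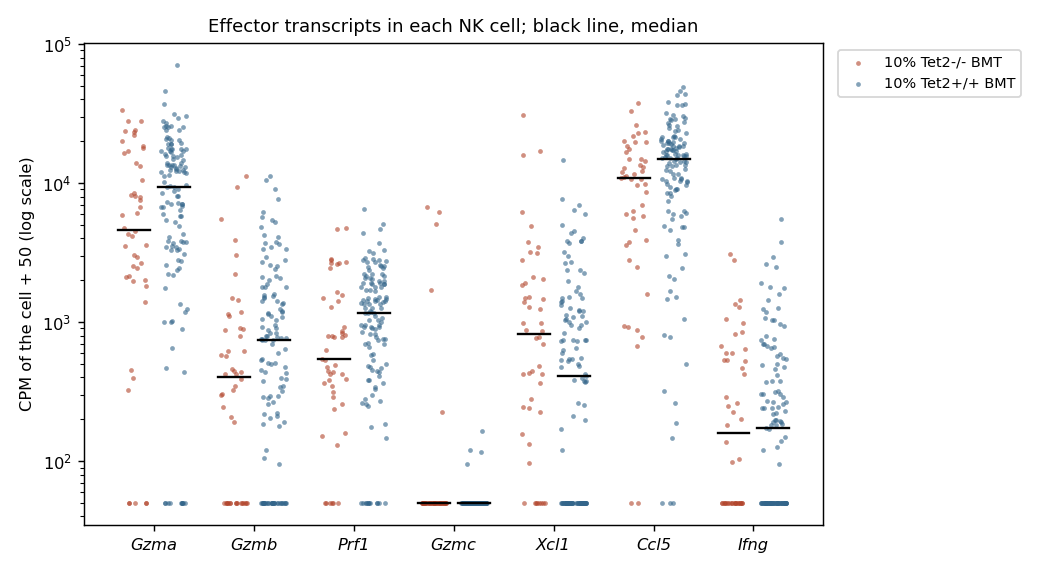
CPM of each NK cell, with 50 added (log scale), for 7 effector genes, with 10% Tet2-/- BMT in red left of 10% Tet2+/+ BMT in blue and black lines at the medians. Gzmc is above the floor in 5 cells of 10% Tet2-/- BMT and 4 of 10% Tet2+/+ BMT, and the Xcl1 cell at the top, in 10% Tet2-/- BMT, holds 30817 CPM.

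Gzmc, a granzyme gene next to Gzmb on chromosome 14, came mainly from 3 cells of 10% Tet2-/- BMT. It stood at 679 CPM in 10% Tet2-/- BMT (294 UMIs in 5 cells) and at 4.60 CPM in 10% Tet2+/+ BMT (4 UMIs in 4 cells), a log2 ratio of 4.83. The 3 cells held 123, 121 and 47 of the 294 UMIs. None of the 3 held a UMI of Gzma, Klrb1c, Eomes, Klra4, Klra8 or Trac, and each held Ncr1, with 4, 7 and 1 UMIs. Klre1 had 2, 0 and 3 UMIs in them, and the cell with 47 Gzmc UMIs also held 1 UMI of Cd3g. Each also held UMIs of the type 1 gene Tmem176b, with 5, 8 and 6, and of Thy1, a lymphocyte surface gene, with 3, 13 and 1, and 2 of them held Itga1, with 3 and 1. The cell with 121 Gzmc UMIs held 736 UMIs of Xcl1, 130 of Gzmb, and all 144 UMIs of the chemokine Ccl1 found in these NK cells. It also held 36 UMIs of Il2, 17 of Csf2 and 8 of Lta, which encode cytokines. Csf2 was not particular to it, as the cell with 47 Gzmc UMIs held 18 UMIs of Csf2. With no UMI of Ccl1 in 10% Tet2+/+ BMT, its level of 332 CPM in 10% Tet2-/- BMT was at least 96.3-fold higher than the limit of 3 UMIs over the NK cells of 10% Tet2+/+ BMT. Without these 3 cells, Gzmc had a log2 ratio of 0.18.

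Receptor genes were mostly lower in 10% Tet2-/- BMT without passing 2-fold. Of 13 activating receptor genes compared, none was called, 12 lay below 0, and the median log2 ratio was -0.47, against 0.04 over all genes. Among the 12 were Ncr1, Klrb1c and Klre1, which the rule used, so this count and median rest in part on the selection. The summed level of the 17 listed genes, rule genes included, was 3791 CPM in 10% Tet2-/- BMT and 5244 CPM in 10% Tet2+/+ BMT. Klrk1 (NKG2D) stood at 593 CPM in 10% Tet2-/- BMT and 794 CPM in 10% Tet2+/+ BMT, a ratio of 0.747 (0.645 to 0.864). Klra4 (Ly49D, activating) stood at 443 CPM in 10% Tet2-/- BMT and 707 CPM in 10% Tet2+/+ BMT, a ratio of 0.627 (0.531 to 0.739). Klra8 (Ly49H, which binds a cytomegalovirus protein) stood at 427 CPM in 10% Tet2-/- BMT and 595 CPM in 10% Tet2+/+ BMT, a ratio of 0.718 (0.604 to 0.851). The activating gene above 0 was Cd160, at 109 CPM in 10% Tet2-/- BMT and 44.9 CPM in 10% Tet2+/+ BMT, a log2 ratio of 0.99 that lay just under the size rule.

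Klra3 (Ly49C, an inhibitory receptor for MHC class I) was the receptor gene called lower. It stood at 155 CPM in 10% Tet2-/- BMT (120 to 196) and 367 CPM in 10% Tet2+/+ BMT (328 to 410), a log2 ratio of -1.15. The call ended, at -0.99, both without the Gzmc cells and when no Cd3 UMI was allowed. Klra3 was found in 15 of 48 cells (31.2%, 18.7 to 46.3) in 10% Tet2-/- BMT and 67 of 127 (52.8%, 43.7 to 61.7) in 10% Tet2+/+ BMT, and after thinning in 10.4% in 10% Tet2-/- BMT and 23% in 10% Tet2+/+ BMT. Klra9 (Ly49I) had a ratio of 0.567 (0.451 to 0.708) and Klra7 (Ly49G) of 0.969 (0.787 to 1.19). The counting may split reads among these related genes, so single Ly49 levels are uncertain. Counted over 6 Ly49 genes, the median cell held 3 in both libraries. At least 3 were held by 52.1% of cells in 10% Tet2-/- BMT and 65.4% in 10% Tet2+/+ BMT, and after thinning by 10.4% in 10% Tet2-/- BMT and 19.8% in 10% Tet2+/+ BMT. The inhibitory and checkpoint list had a median of -0.13 over 6 genes, and Pdcd1 (PD-1) had no UMI in either library.

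Signalling adaptors showed no call among 10 genes, beside 2.21% called over all genes compared, with a median log2 ratio of -0.19. Tyrobp (DAP12), which carries the signal of activating Ly49 receptors, stood at 2805 CPM in 10% Tet2-/- BMT and 3062 CPM in 10% Tet2+/+ BMT, and the adaptor gene Fcer1g at 2523 CPM in 10% Tet2-/- BMT and 2450 CPM in 10% Tet2+/+ BMT. Cytokine receptors held no call among 7 genes, with a median of -0.28. Il18r1, for the interferon-inducing interleukin 18, stood at 94.7 CPM in 10% Tet2-/- BMT and 193 CPM in 10% Tet2+/+ BMT. Its ratio was 0.490 (0.339 to 0.692), and its log2 ratio with 20 CPM added was -0.90.

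**Figure D4:**
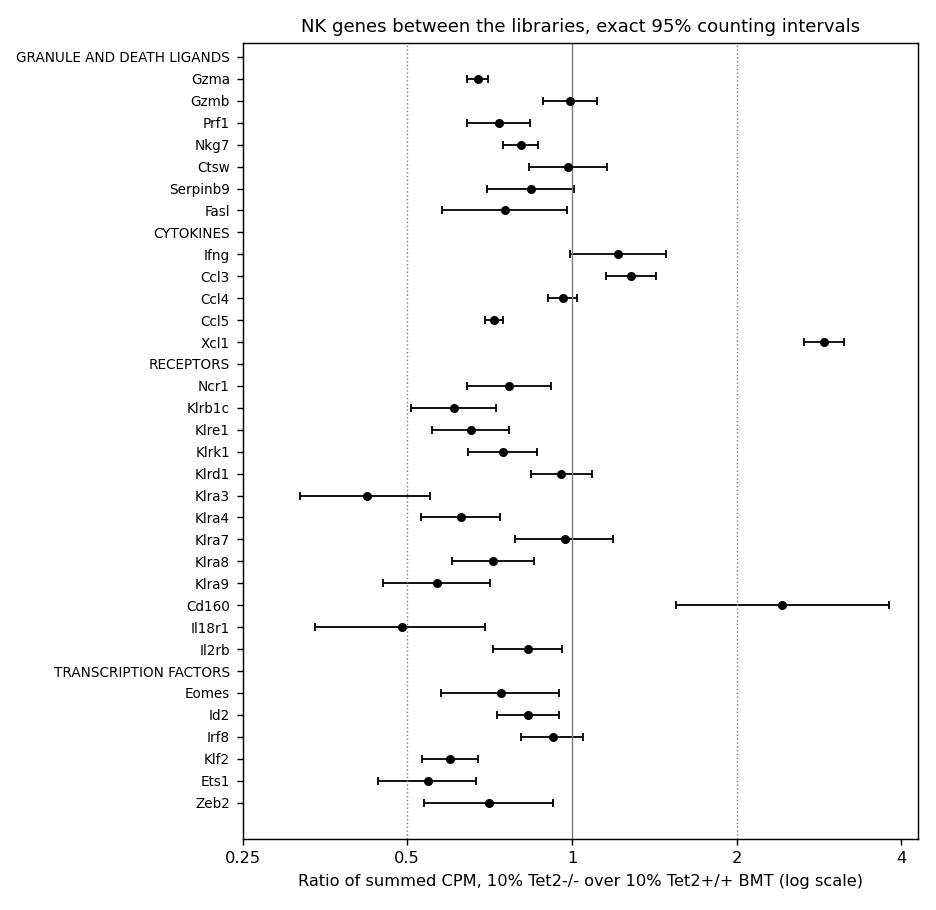
Ratio of summed CPM in NK cells, 10% Tet2-/- BMT over 10% Tet2+/+ BMT (log scale), for granule, cytokine, receptor and transcription factor genes, with points for the ratio, bars for exact 95% counting intervals and dotted lines at 2-fold. Most receptor genes lie left of 1, Klra3 at 0.421 among them, and Xcl1 and Cd160 lie right of 2.

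Genes of mature and of immature NK cells lay on opposite sides. Of 12 circulating mature NK genes compared, all 12 lay below 0 and none was called, with a median log2 ratio of -0.55. Klf2, a factor that controls lymphocyte traffic, stood at 847 CPM in 10% Tet2-/- BMT and 1413 CPM in 10% Tet2+/+ BMT, a ratio of 0.600 (0.532 to 0.674). Single cells ranged from 0 to 7329 CPM of Klf2 in 10% Tet2-/- BMT and from 0 to 10666 CPM in 10% Tet2+/+ BMT. Itgam had a ratio of 0.569 (0.394 to 0.807), Spn (CD43) 0.612 (0.452 to 0.819) and Cma1, a chymase gene transcribed in mouse NK cells, 0.507 (0.364 to 0.694). Of 7 immature NK genes, all 7 lay above 0, with a median of 0.46. The 1 called was Xcl1, also the call among cytokine genes, beside 2.21% called over all genes compared. Cd27 had a ratio of 1.54 (1.08 to 2.19) and Cd7, a surface glycoprotein gene, 1.60 (1.28 to 1.99). Without the Gzmc cells the median was -0.42 for the mature and 0.47 for the immature list. The sorts chose on CD11b protein, and the part of the gates in this contrast was not tested.

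Transcription factors had no call among 11 genes, beside 2.21% called over all genes compared, and a median of -0.26. Eomes stood at 212 CPM in 10% Tet2-/- BMT (171 to 260) and 287 CPM in 10% Tet2+/+ BMT (252 to 324), a ratio of 0.741 (0.577 to 0.945). Its share of cells ran the other way, so no order is read from that share. Ets1, needed for NK cell development, stood at 284 CPM in 10% Tet2-/- BMT and 521 CPM in 10% Tet2+/+ BMT, a ratio of 0.545 (0.443 to 0.666), and its log2 ratio was -0.83 in NK cells and -0.54 in T cells. Tbx21 (T-bet, the partner of Eomes in NK maturation) stood at 62.3 CPM in 10% Tet2-/- BMT and 82.8 CPM in 10% Tet2+/+ BMT. Tet2 itself was sparse, with 19 UMIs in 12 cells of 10% Tet2-/- BMT and 34 UMIs in 27 cells of 10% Tet2+/+ BMT. Its level was 43.9 CPM in 10% Tet2-/- BMT and 39.1 CPM in 10% Tet2+/+ BMT, a ratio of 1.12 (0.604 to 2.02). A 3' count outside a deleted part would not show a deletion, and only some of the marrow was Tet2-/-, so this level does not check the genotype.

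Bcl2a1b, a survival gene of a family of near-identical copies, was called higher in 10% Tet2-/- BMT with its UMIs spread over cells. It stood at 194 CPM in 10% Tet2-/- BMT and 69.0 CPM in 10% Tet2+/+ BMT, a log2 ratio of 1.26, was found in 22 cells in 10% Tet2-/- BMT and 29 in 10% Tet2+/+ BMT, and had at most 13.3% of its UMIs in 1 cell of either library. Cdkn1a, a cell cycle inhibitor, had a log2 ratio of 1.56 with 47.8% of the UMIs of 10% Tet2-/- BMT in 1 cell. Lower in 10% Tet2-/- BMT were the linker histone gene Hist1h1c at -1.12, the glucocorticoid-induced Tsc22d3 at -1.08 and Klf3, a Kruppel-like factor, at -1.01. These 3 calls were close to the size rule, and some alternatives ended them, at -0.99 for Hist1h1c and -0.79 for Klf3 with a pseudocount of 50 CPM and at -0.69 for Tsc22d3 with the mean of per-cell CPM. Tsc22d3 stood at 87.7 CPM in 10% Tet2-/- BMT and 208 CPM in 10% Tet2+/+ BMT, and in T cells its log2 ratio was -0.52.

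Myeloid transcripts made up many of the other calls. Chil3, F13a1, Lyz2, Fn1, Cd14 and Hp were called higher in 10% Tet2-/- BMT, and Mgl2, C1qa, Apoe and Cd74 lower. Single cells gave much of this. The cell of 10% Tet2-/- BMT richest in each gene held 81.9% of the Hp, 77.8% of the F13a1 and 72.6% of the Chil3 UMIs, and in 10% Tet2+/+ BMT 1 cell held 69.9% of the Mgl2 UMIs. Hp, the haptoglobin gene, was found in 8 of 48 cells in 10% Tet2-/- BMT and 45 of 127 in 10% Tet2+/+ BMT, and its log2 ratio of 1.60 turned to -0.33 without its richest cells. The Chil3 log2 ratio, for a chitinase-like protein gene of myeloid cells, was just under the size rule without its richest cells, at 0.996 in place of 2.43. F13a1 fell under the size rule, at 0.89 in place of 2.37, without the cells over 3 times the median depth. The log2 ratio of Mgl2 was 0.0038 in place of -2.61, and that of C1qa -0.69 in place of -1.36, without the cells rich in Lyz2, Cd74 and Apoe. Lyz2, the lysozyme gene of myeloid cells, stood at 2112 CPM in 10% Tet2-/- BMT, where 2 cells gave 421 and 405 of its 915 UMIs, and 458 CPM in 10% Tet2+/+ BMT. Cd74, the MHC class II chaperone gene, stood at 1812 CPM in 10% Tet2-/- BMT and 3651 CPM in 10% Tet2+/+ BMT, where 3 cells gave 1023, 961 and 736 of its 3173 UMIs. Over 11 monocyte and macrophage markers the summed level was 3442 CPM in 10% Tet2-/- BMT and 2473 CPM in 10% Tet2+/+ BMT, with 37.7% of it in 1 cell of 10% Tet2-/- BMT and 18.4% in 1 cell of 10% Tet2+/+ BMT. The C1q genes among these markers were limited by the rule. Over 11 dendritic cell markers the summed level was 3523 CPM in 10% Tet2-/- BMT and 6723 CPM in 10% Tet2+/+ BMT. Neutrophil markers summed to 4590 CPM in 10% Tet2-/- BMT and 5392 CPM in 10% Tet2+/+ BMT, with S100a8 and S100a9 limited by the rule. Without the cells rich in Lyz2, Cd74 and Apoe, the log2 ratio of Cd74 was -0.26 in place of -1.003, that of Apoe -0.41 in place of -1.14, and that of Lyz2 2.10 in place of 2.16. The Cd74 ratio turned, at 0.36, without the cells over 3 times the median depth.

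T cell transcripts were low apart from Trbc1. Cd8b1, Cd8a and Cd4 had no UMI in either library, and Trac had 6 UMIs in 10% Tet2-/- BMT and 18 in 10% Tet2+/+ BMT. Trbc1, a constant-region gene whose unrearranged transcript NK cells can make, stood at 321 CPM in 10% Tet2-/- BMT and 295 CPM in 10% Tet2+/+ BMT, against 338 CPM in T cells of 10% Tet2-/- BMT and 475 CPM in T cells of 10% Tet2+/+ BMT. Trbc2 stood at 30.01 CPM in 10% Tet2-/- BMT (16.0 to 51.3) and 153 CPM in 10% Tet2+/+ BMT (128 to 181), a log2 ratio of -1.79, in 4 of 48 cells of 10% Tet2-/- BMT and 37 of 127 of 10% Tet2+/+ BMT. In T cells Trbc2 stood at 697 CPM in 10% Tet2-/- BMT and 818 CPM in 10% Tet2+/+ BMT. Of 14 T cell markers 10 were at least 2-fold below T cells in both libraries. Among the 10 were Cd3e, Cd3d and Cd3g, whose deficit was set by the choice of both kinds of cell. B cell markers summed to 13.9 CPM in 10% Tet2-/- BMT and 40.3 CPM in 10% Tet2+/+ BMT, with Cd79a and Ms4a1 limited by the rule. Mast cell and basophil markers summed to 157 CPM in 10% Tet2-/- BMT, of which Cma1 gave 115 CPM, and 245 CPM in 10% Tet2+/+ BMT, of which Cma1 gave 228 CPM, with Cpa3, Mcpt8 and Fcer1a at 0.

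Lists of cell states held few calls, near the 2.21% called over all genes compared. Glycolysis genes lay above 0 in 9 of 10 compared, with none called and a median of 0.48. Gapdh, a glycolytic enzyme gene, stood at 780 CPM in 10% Tet2-/- BMT, with 24.6% of it in 1 cell, and 499.4 CPM in 10% Tet2+/+ BMT. Immediate early and NF-kB genes had a median of -0.03 over 23 genes with none called. Among them Nfkbia, the inhibitor induced by NF-kB, stood at 1351 CPM in 10% Tet2-/- BMT and 800 CPM in 10% Tet2+/+ BMT, a ratio of 1.69 (1.51 to 1.89), with log2 ratios of 0.74 in NK cells and 0.40 in T cells. The 5 interferon-stimulated genes that met the minimum had a median of -0.65. The list's summed level was 1104 CPM in 10% Tet2-/- BMT and 1552 CPM in 10% Tet2+/+ BMT, and in T cells 2283 CPM in 10% Tet2-/- BMT and 4077 CPM in 10% Tet2+/+ BMT. Survival genes had a median of 0.23 over 7 genes with Bcl2a1b called. Homing receptors and integrins had a median of -0.21 over 11 genes, type 1 genes 0.09 over 4 and heat shock genes 0.09 over 5, with none called.

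Few of the cells held cell cycle transcripts. At least 3 UMIs over 9 cycle genes were held by 2 of 48 cells (4.17%) in 10% Tet2-/- BMT and 4 of 127 (3.15%) in 10% Tet2+/+ BMT. They held 115 of the 124 UMIs of those genes in 10% Tet2-/- BMT and 387 of 418 in 10% Tet2+/+ BMT.

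The libraries also differed in sex chromosome transcripts, so sex and group cannot be told apart in any contrast above. Xist, made by the inactive X chromosome, was found in 39 of 48 NK cells of 10% Tet2-/- BMT, at 566 CPM, and in 1 of 127 of 10% Tet2+/+ BMT, with 1 UMI. Summed over Ddx3y, Eif2s3y, Kdm5d and Uty, Y-linked transcripts stood at 13.9 CPM (5.08 to 30.1) in NK cells of 10% Tet2-/- BMT and 190 CPM (162 to 221) in those of 10% Tet2+/+ BMT. In 10% Tet2-/- BMT 38 NK cells held Xist only, 3 held Y-linked UMIs only and 1 held both. As a share of the level of the same cell type in 10% Tet2+/+ BMT, the Y-linked level in 10% Tet2-/- BMT was 7.30% in NK cells, 34.7% in T cells, 18.2% in B cells and 8.54% in neutrophils. Within 10% Tet2-/- BMT the Y-linked interval of NK cells does not overlap that of T cells (54.0 to 78.3 CPM). Of the 119 T cells there, 54 held Xist only, 19 held Y-linked UMIs only and 32 held both, at a median of 12803 UMIs per cell. Whether those with both are doublets was not tested, so no difference between cell types is read from this contrast.

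**Figure D5:**
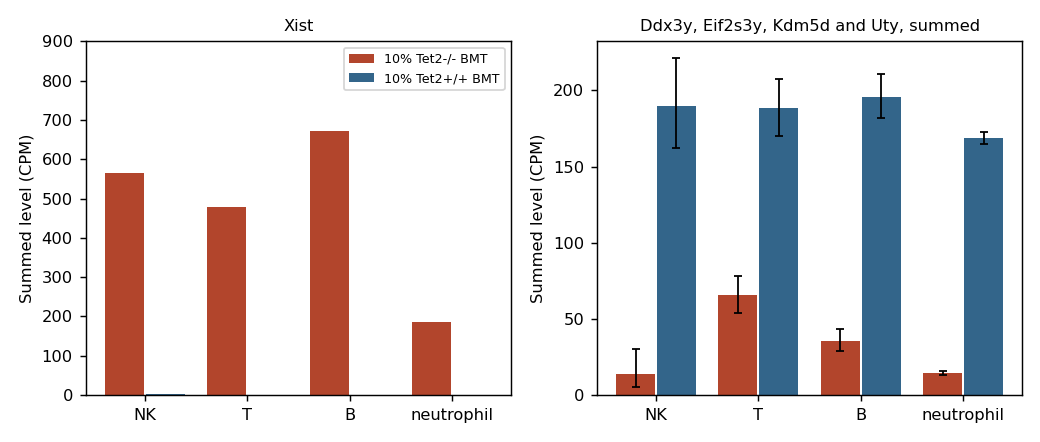
Summed level (CPM) of Xist on the left and of 4 Y-linked genes on the right in NK cells, T cells, B cells and neutrophils, with 10% Tet2-/- BMT in red left of 10% Tet2+/+ BMT in blue, and exact 95% counting intervals on the Y-linked bars. In 10% Tet2-/- BMT the Y-linked bar of NK cells (13.9 CPM) is about as low as that of neutrophils (14.4 CPM).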

How the data were processed

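The authors deposited raw UMI counts per gene and barcode for both libraries, with empty barcodes included. Per the submitters' processing notes, reads were counted with Cell Ranger 6.1.2 against mm10, while per the file headers the matrices come from Cell Ranger 4. About 20000 cells per library were loaded on a 3' kit, per the labels' protocols. From these counts, barcodes with at least 500 UMIs, at least 250 genes and at most 10% mitochondrial UMIs were kept, and the selection rule was applied. T cells, B cells and neutrophils for comparison were chosen in the same way by Cd3, Cd79a and Ms4a1, or S100a8 and S100a9 with Csf3r, and the T and B cells could hold at most 1 UMI over the rule's genes. The kept cells held 85289763 UMIs in 10% Tet2-/- BMT and 87908757 in 10% Tet2+/+ BMT, and the NK cells 433156 in 10% Tet2-/- BMT and 869053 in 10% Tet2+/+ BMT. Doublets were not removed.

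UMIs were summed over the cells of each library and scaled to CPM with Python 3.11.15, numpy 2.4.6, scipy 1.17.1 and pandas 2.3.3. Levels have exact Poisson, shares exact binomial (Clopper-Pearson) and ratios exact conditional binomial 95% intervals. PCR copies are collapsed by UMI, and intervals and the limit of 3 counts for a count of 0 cover counting error only. The calculation was tested on simulated data. Gene positions came from GENCODE M21, which matched 32235 of 32285 identifiers.

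The cells and all 28 gene lists were chosen with earlier results of these data known. Named genes are list members at 100 CPM or more, the 12 highest and 12 lowest called ratios, the 30 genes with the highest excess over other cells, the 10 highest and lowest against T cells, and Tet2, Ifng, Prf1, Gzma, Gzmb and Eomes. Ribosomal, mitochondrial, antigen receptor and sex-linked genes stayed out of rankings. Other genes under 100 CPM were named after their values were seen. Alternatives covered the rule's thresholds, depth, scaling, pseudocount, minimum, free RNA and rich cells.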

Additional observations from a re-analysis of the deposited data

Results flagged for a closer look

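Kept cells outside the selection also held NK transcripts. With 3 or more UMIs over Ncr1, Klrb1c, Klre1 and Gzma but past another limit of the rule, there were 60 cells in 10% Tet2-/- BMT and 78 in 10% Tet2+/+ BMT. They were looked at because they enter no comparison above. In 10% Tet2-/- BMT 38 of them were past the Cd3 limit, 21 past the B cell limit, 13 past the S100a8 and S100a9 limit and 4 past the C1q limit, and in 10% Tet2+/+ BMT 43 were past the Cd3 limit, 20 the B cell limit, 26 the S100a8 and S100a9 limit and 7 the C1q limit, with some cells past more than 1.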

How the results depend on the processing

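The share ratio kept its direction under all 12 alternatives, between 0.439 and 0.630. Counts of genes past 2-fold moved. The 9 genes lower in 10% Tet2-/- BMT became 5 without the cells rich in Gzmc, 15 with the mean of per-cell CPM, 16 and 4 with pseudocounts of 5 and 50 CPM, and 34 with a minimum of 10 UMIs only. The 26 higher became 15 with per-cell CPM, 60 with the 10-UMI minimum and 13 of the genes that met the minimum without the richest cell of each gene. Signs turned for Furin without the Gzmc cells (-0.38), for Hp without cells over 3 times the median depth (-0.38) or the richest cell (-0.33), for Hist1h2ae without deep cells (-1.02), with per-cell CPM (-0.032) or without the richest cell (-0.54), and for Ifitm6 without the cells rich in Lyz2, Cd74 and Apoe (-0.22). Mgl2 was at 0.048 without deep cells and 0.0038 without those rich in the 3 genes, and Cd74 at 0.36 without deep cells. The interferon list's median of -0.65 became -0.22 with per-cell CPM, -0.30 with the 10-UMI minimum and -0.30 without the richest cell, and the S and G2/M median of -0.07 became 0.29 without the cells rich in Lyz2, Cd74 and Apoe. The cause of these shifts was not tested, apart from the cells or genes each alternative leaves out. The other 98 list medians computed stayed close. Leaving out cells by Gzmc, by the 3 myeloid genes or by the richest cell was chosen after seeing the data. No paired analysis was possible because each group is 1 library. With 48 cells in 10% Tet2-/- BMT, single cells limit most ratios.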
